A study of Mus musculus with 16 samples.

Results

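The state of mouse macrophages a day after contact with LPS was compared with the state of the same kind of cells at rest. LPS, a glycolipid of the Gram-negative bacterial envelope, is sensed by the receptor Tlr4. The comparison took 8 of the 16 arrays of the study, chosen by genotype and time in the sample titles: 4 arrays after 24 h of LPS (2 from KO and 2 from WT macrophages) and 4 arrays at 0 h (again 2 from KO and 2 from WT). KO cells lacked the microRNA miR-155, WT cells carried it, and the genotypes were pooled with genotype and replicate number as terms of the fit. All cells came from male C57BL/6Jax mice and had grown from total bone marrow for 9 days with M-CSF at 10 ng/mL, under which marrow progenitors mature to macrophages. The adherent cells were lysed at rest or after LPS at 100 ng/mL, and total RNA was hybridised to single-colour Agilent arrays. The other 8 arrays, at 6 h and 12 h of LPS, are used only to place the 24 h values in time. The labels do not say whether replicates were separate animals or cultures, so the p-values measure the spread between these samples. No probe was found under a name of the miR-155 host gene (0 probes), and probe positions were not searched for it. Its absence in KO cells was therefore not checked here. The mature mouse miR-155-5p (RefSeq, GRCm38.p6, chr16:84714143-84714165, plus strand) is shown because its loss defines the KO group, with the seed, bases 2 to 8, in capitals.
mmu-miR-155-5p: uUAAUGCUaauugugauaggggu

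Macrophages that sense LPS switch on genes of NF-kB, AP-1 and interferon regulatory factors within hours. Secreted interferon then drives a further wave of antiviral genes in the same culture, while inhibitors such as Socs1 and Nfkbia damp the signal. Many early genes return towards rest during the first day, and genes of host defence, metabolism and antigen presentation can remain raised for longer. Cells grown in M-CSF divide, and inflammatory activation is known to stop that division.

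A level is the log2 of the probe signal relative to the 75th percentile of its array, so a difference of 1 is a change of 2-fold. Differences are 24 h minus 0 h with the standard error of the fit over 4 and 4 arrays, and p-values are from limma with Benjamini-Hochberg adjustment over 17659 genes. The upper quartile of signal was 354 to 730 scanner units over the 8 arrays, with 58.3% to 67.6% of the probes counted as well above background. Along the first principal component, with 60.3% of the variance, the 24 h arrays lay apart from the 0 h arrays. The second held 25.8% and separated replicate 1 from replicate 2, which are also the 2 scan sessions. In session 1 the 24 h and 0 h arrays lay on different slides, so slide and LPS cannot be told apart there. In session 2 each genotype had its 24 h and 0 h array on 1 slide. The RNA was bulk RNA, so a change in RNA per cell and a change in the share of cells of a type cannot be told apart.

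A day after LPS, 7447 of 17659 genes (42.2%) differed from rest, 3544 higher (20.1%) and 3903 lower (22.1%). Of these, 730 were raised and 947 lowered by more than 4-fold, and 226 and 157 by more than 16-fold. Both sides held genes that did not overlap between the 4 and 4 arrays, 2848 higher (16.1% of all genes) and 2870 lower (16.3%). All 7447 moved the same way in both sessions, and 7437 did so on both slides of session 2. These genes were picked by a fit to the same arrays, so that agreement is largely a product of the choice. The median over all genes was −0.03. Without the session term, 1929 genes were higher and 2092 lower. When each array was scaled to its median in place of its 75th percentile, the median of all genes moved to 0.29 and the split to 5941 higher and 2477 lower, and a normexp background correction gave a median of 0.19. The list medians below shift with the scaling in the same way, and each list count of the main fit stands against the 20.1% higher and 22.1% lower of all genes. List counts without the session term stand against the 1929 higher and 2092 lower of 17659 genes in that fit. The sizes below are relative to the 75th percentile.

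**Figure D1:**
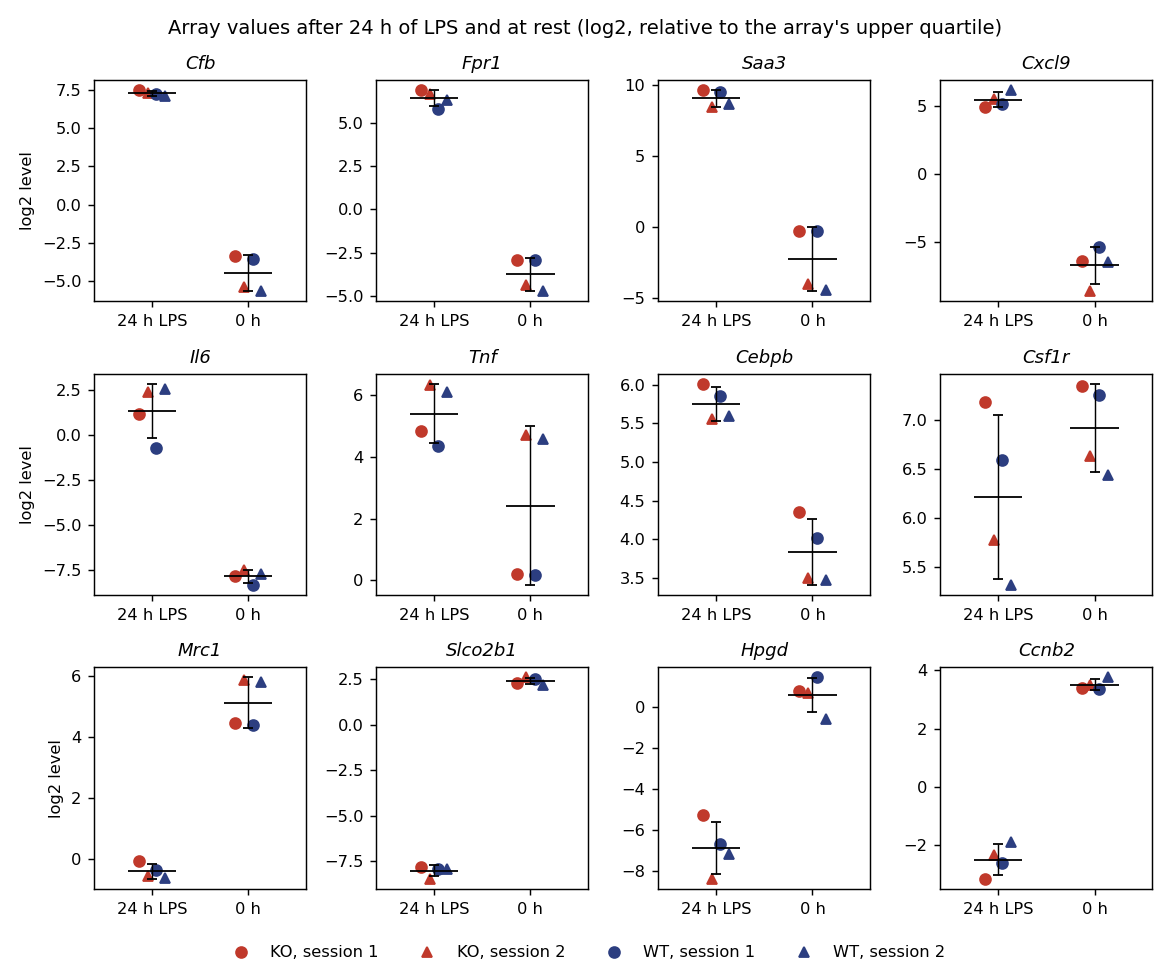
Log2 levels of 12 genes on the 4 arrays after 24 h of LPS (left) and the 4 arrays at 0 h (right); red is KO, blue is WT, circles are session 1 and triangles session 2, and bars are the mean ± SD of 4 arrays. Cfb, Fpr1, Saa3, Cxcl9, Il6 and Cebpb lie higher and Mrc1, Slco2b1, Hpgd and Ccnb2 lower after 24 h with no overlap, and Tnf and Csf1r overlap between the states.

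Cfb and Fpr1 were among the largest rises and Mrc1 was clearly lowered. Complement factor B (Cfb; probe at chr17:34993502-34993858 on mm9), a serine protease of the alternative complement pathway, had levels of 7.48 and 7.26 in KO and 7.23 and 7.05 in WT macrophages after 24 h, against −3.34 and −5.33 in KO and −3.52 and −5.60 in WT macrophages at 0 h. All 4 arrays after LPS lay within a narrow range far above rest, and at rest the session 1 arrays were the higher ones. Cfb rose by 11.70 ± 0.38 (adjusted p = 4.37e-05), with 10.78 in session 1 and 12.62 in session 2. The formyl peptide receptor Fpr1 (chr17:18013609-18013668), which guides phagocytes to bacterial and mitochondrial peptides, had levels of 6.88 and 6.67 in KO and 5.79 and 6.28 in WT macrophages after 24 h, against −2.94 and −4.37 in KO and −2.91 and −4.71 in WT macrophages at 0 h. It rose by 10.14 ± 0.40 (adjusted p = 6.81e-05) with no overlap between the states. The mannose receptor Mrc1 (chr2:14253304-14253363), a scavenger receptor of resting and alternatively activated macrophages, went the other way, with levels of −0.09 and −0.58 in KO and −0.38 and −0.63 in WT macrophages after 24 h, against 4.45 and 5.89 in KO and 4.39 and 5.82 in WT macrophages at 0 h. It fell by 5.56 ± 0.38 (adjusted p = 2.04e-04), and all 4 arrays after LPS lay below all 4 at rest.

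The other large rises spanned interferon-induced, acute-phase and metabolic genes. The largest measured one was Cxcl9, a chemokine for activated T cells, at 12.10 ± 0.57. Next to Cfb came the acute-phase gene Saa3 (11.27 ± 0.60), Acod1, which makes itaconate (10.68 ± 0.57), Slfn4 of the Schlafen family (10.08 ± 0.35) and the receptor Fpr2 (9.06 ± 0.34). The Ras activator Rasgrp1 (8.61 ± 0.69) and the membrane proteins Ms4a4c (8.46 ± 0.44) and Ms4a4d (8.63 ± 0.61) were further large rises among genes well above background in both states. A second detected probe of Rasgrp1 had the opposite sign. A size includes signal near background where a gene was not well above background on all 8 arrays. This held for Cxcl9, Slfn4, Gbp6, Ifi205, Rhoj, H1f3, Aspm, Pbk and Ska1, among others. Genes that were not well above background on any of the 4 arrays of the dim state have only a lower bound. The bound divides the mean of the 4 bright arrays by the mean of a floor over the dim arrays. That floor is the dimmest signal that still counted as well above background on the array, or the signal of the probe where that is brighter. By this measure Cxcl11, another chemokine for activated T cells, was at least 1131-fold higher (adjusted p = 2.29e-04), Slfn1 at least 273-fold, the guanylate-binding protein gene Gbp4 at least 256-fold and the glutathione transferase gene Gstt4 at least 228-fold.

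The deepest losses were of transporters, prostaglandin breakdown and cell division. Slco2b1, an organic anion transporter, had levels of −7.80 and −8.46 in KO and −7.93 and −7.89 in WT macrophages after 24 h, against 2.30 and 2.60 in KO and 2.51 and 2.19 in WT macrophages at 0 h. No 24 h array was well above background, every 0 h array was, and the gene was at least 378-fold lower (adjusted p = 1.33e-05). Gpr34, a receptor for lysophosphatidylserine, was at least 76.8-fold lower, and F13a1, the clotting factor XIII subunit of resident macrophages, at least 50.6-fold. Hpgd, which inactivates prostaglandins, had levels of −5.29 and −8.38 in KO and −6.70 and −7.17 in WT macrophages after 24 h, against 0.78 and 0.67 in KO and 1.43 and −0.59 in WT macrophages at 0 h, and fell by 7.46 ± 0.49 (adjusted p = 1.92e-04). Of its 24 h arrays, 1 was well above background, and the states did not overlap. Smpd3, a neutral sphingomyelinase, fell by 6.52 ± 0.56, the Rap and Ras activator Rasgrp3 by 6.78 ± 0.80 and the small GTPase gene Rhoj by 6.25 ± 0.27. The linker histone genes H1f5 and H1f3, which are expressed in dividing cells, fell by 6.86 ± 0.19 and 6.16 ± 0.68. Ighm, the immunoglobulin heavy chain of B cells, fell by 6.95 ± 0.64, with levels of −3.98 and −5.48 in KO and −2.87 and −4.05 in WT macrophages after 24 h, against 1.59 and 3.75 in KO and 2.57 and 3.51 in WT macrophages at 0 h. Of the 7 B lymphocyte markers tested, a list without Ighm, 0 were higher and 1 was lower, with a summed level, in multiples of the upper quartile, of 158 to 189 over the 24 h arrays, against 114 to 164 over the 0 h arrays. The part of B cells in the Ighm difference was not tested.

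Interferon-stimulated genes rose without exception. All 46 tested members rose, against 20.1% of all genes, and none fell. Their median difference was 4.97, with 4.10 in session 1 and 5.81 in session 2, against −0.03 over all genes. Over the 43 members well above background on all 8 arrays the median was 4.27. The count was the same with each array left out in turn and without the session term. The rises ran from 1.28 to 12.10. Oasl1, an inhibitor of Irf7 translation, had levels of 5.55 and 6.91 in KO and 5.82 and 7.01 in WT macrophages after 24 h, against −1.32 and −1.86 in KO and −2.59 and −2.77 in WT macrophages at 0 h, and rose by 8.46 ± 0.43 (adjusted p = 1.01e-04). Gbp6, a guanylate-binding protein that attacks pathogen vacuoles, rose by 9.44 ± 0.64 and Cxcl9 by the amount given above. Ifi205, an interferon-inducible gene of the same broad response that was not on the list, rose by 8.75 ± 0.75. Cxcl10, a chemokine induced by interferon, had levels of 6.95 and 7.72 in KO and 8.38 and 8.0 in WT macrophages after 24 h, against 1.58 and 2.17 in KO and 1.63 and 1.53 in WT macrophages at 0 h. At rest 1 KO array (2.17) stood above the others. All 4 arrays after LPS lay far above every array at rest, a rise of 6.03 ± 0.32 (adjusted p = 1.04e-04). The 250 bases upstream of the Cxcl10 start are shown because they hold, in capitals, the interferon-stimulated response element counted below, here on the opposite strand, 213 bases before the start (RefSeq, GRCm38.p6, chr5:92348890-92349139, minus strand).
Cxcl10: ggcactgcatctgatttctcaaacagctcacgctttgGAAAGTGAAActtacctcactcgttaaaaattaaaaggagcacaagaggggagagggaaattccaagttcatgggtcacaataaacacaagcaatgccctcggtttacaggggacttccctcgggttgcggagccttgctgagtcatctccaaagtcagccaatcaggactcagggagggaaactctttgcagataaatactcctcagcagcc

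Cytokine genes remained raised as a group but stood below their 6 h level. Of 26 tested cytokine and growth factor genes, 18 rose and 3 fell (without the session term 15 and 1), with a median of 2.34, or 2.08 with members below background set to their bound. Their median against the same 0 h arrays was 5.09 at 6 h and 3.67 at 12 h. In the fit of 24 h against 6 h, 22 of them were lower at 24 h and 1 higher, against 29.7% and 23.2% of all genes. Il6, the inducer of the hepatic acute-phase response, had levels of 1.19 and 2.40 in KO and −0.70 and 2.53 in WT macrophages after 24 h, against −7.80 and −7.46 in KO and −8.32 and −7.72 in WT macrophages at 0 h. It was not well above background on any array at rest and was at least 214-fold higher after 24 h (adjusted p = 1.02e-04). Il1b, the pyrogen interleukin 1 beta, had levels of 6.29 and 7.02 in KO and 5.21 and 6.27 in WT macrophages after 24 h, against −1.76 and 0.68 in KO and −1.59 and 0.44 in WT macrophages at 0 h, and rose by 6.76 ± 0.35 with no overlap. The related Il1a rose by 6.96 ± 0.37. The interferon gene Ifnb1 was at least 74.9-fold higher and Il12b, whose product is shared by interleukins 12 and 23, at least 58.7-fold. Il1rn, the natural antagonist of the interleukin 1 receptor, rose by 4.16 ± 0.48.

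Tnf, an early cytokine of the LPS response, depended on the session. Its levels were 4.83 and 6.34 in KO and 4.34 and 6.10 in WT macrophages after 24 h, against 0.22 and 4.72 in KO and 0.16 and 4.56 in WT macrophages at 0 h, where the first value of each pair is from session 1. At rest the session 2 arrays stood more than 4 log2 units above those of session 1, and they overlapped the 24 h arrays of session 1. Tnf differed by 2.99 ± 0.58 (adjusted p = 0.00825), with 4.40 in session 1 and 1.58 in session 2, and missed the threshold without the session term (adjusted p = 0.139). Il10, which limits inflammation, had the same pattern at rest, and its difference of 0.72 ± 0.58 did not pass (adjusted p = 0.351). Its sessions gave 1.99 and −0.55. Csf1, the ligand of the M-CSF receptor, was raised by 2.52 ± 0.15, Inhba, a subunit of activin A, by 4.85 ± 0.85 and the death ligand Tnfsf10 by 4.97 ± 0.49. These 3 genes were chosen after their values were seen. The 250 bases upstream of the Il6 start are shown because they hold a match to the kappa B consensus, the sequence bound by NF-kB, in capitals, 44 bases before the start (RefSeq, GRCm38.p6, chr5:30012864-30013113, plus strand).
Il6: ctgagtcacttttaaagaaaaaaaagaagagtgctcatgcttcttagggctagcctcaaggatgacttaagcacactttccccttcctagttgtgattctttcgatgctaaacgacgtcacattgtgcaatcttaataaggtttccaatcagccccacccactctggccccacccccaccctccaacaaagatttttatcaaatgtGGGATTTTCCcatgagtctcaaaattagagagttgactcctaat

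Chemokines were raised more often than genes at large, and their share of falls was near that of all genes. Of 24 tested, 14 rose and 5 fell, against 20.1% and 22.1% of all genes. Their median was 2.05 (4.36 at 6 h and 3.29 at 12 h). Without the session term 10 rose and 4 fell, and the median was 0.97 with normexp correction, 2.29 in session 1 and 1.29 in session 2. The rises were led by Cxcl9 and Cxcl11 and by Ccl5, an attractant of T cells and monocytes. Ccl5 had levels of 9.92 and 9.03 in KO and 9.93 and 8.84 in WT macrophages after 24 h, against 2.97 and −1.70 in KO and 3.08 and −1.81 in WT macrophages at 0 h. At rest the session 1 arrays were about 5 log2 units above those of session 2, yet all 24 h arrays lay above them, and the difference was 8.80 ± 0.77 (adjusted p = 4.53e-04). Cx3cl1, the membrane-bound ligand of Cx3cr1, fell by 2.26 ± 0.20 after 3.99 at 6 h and 1.68 at 12 h. The platelet chemokines Ppbp and Pf4 fell by 3.30 ± 0.28 and 1.45 ± 0.16 and Ccl6, a chemokine of resting myeloid cells, by 1.98 ± 0.24. With normexp background correction Ppbp had a difference of 0.040. Of the 5 megakaryocyte and platelet markers tested, which include both, 3 were lower and 1 was higher, and their summed level was 47.1 to 77.4 over the 24 h arrays, against 162 to 200 over the 0 h arrays.

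Receptors for attractants changed in opposite directions. Of 14 tested, 6 rose and 4 fell, against 20.1% and 22.1% of all genes. Their median was 0.52, with −0.04 in session 1 and 0.95 in session 2. Fpr2, a formyl peptide receptor that also binds serum amyloid A, had levels of 5.95 and 5.55 in KO and 5.41 and 5.81 in WT macrophages after 24 h, against −2.61 and −3.93 in KO and −2.66 and −4.30 in WT macrophages at 0 h, with no overlap. The decoy-like receptor Ccrl2 rose by 2.71 ± 0.32 and Ccr7, which guides cells to lymph nodes, by 1.97 ± 0.26. Cxcr4, the receptor for Cxcl12, had levels of 0.53 and −3.09 in KO and −0.26 and −3.04 in WT macrophages after 24 h, against 2.67 and 1.23 in KO and 2.52 and 1.05 in WT macrophages at 0 h. It fell by 3.33 ± 0.38 (adjusted p = 0.00124), and had stood at −6.72 relative to 0 h at 6 h. Gpr183, the oxysterol receptor, fell by 4.59 ± 0.43 and the complement C5a receptor gene C5ar1 by 1.38 ± 0.17.

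Secreted defence proteins were among the largest lasting rises. Of 28 tested acute-phase, complement and antimicrobial genes, 20 rose and 2 fell (without the session term 16 and 1), with medians of 2.69 at 6 h, 2.78 at 12 h and 2.31 at 24 h (1.26 with normexp correction). Saa3, a serum amyloid A made outside the liver, had levels of 9.63 and 8.42 in KO and 9.46 and 8.62 in WT macrophages after 24 h, against −0.28 and −3.99 in KO and −0.29 and −4.42 in WT macrophages at 0 h. At rest the session 1 arrays were about 4 log2 units above the session 2 arrays, and both were far below the 24 h arrays. Its relatives Saa1 and Saa2 rose too, Saa1 by 8.61 ± 0.16 and Saa2 to at least 75.5-fold. These genes are similar in sequence, and what each probe shares with the others was not tested. Lcn2, which binds bacterial siderophores, had levels of 3.72 and 4.12 in KO and 3.58 and 3.87 in WT macrophages after 24 h, against −3.01 and −5.59 in KO and −1.93 and −6.14 in WT macrophages at 0 h and rose by 7.99 ± 0.80 (adjusted p = 7.27e-04). Ltf, the iron-binding protein of neutrophil granules, fell by 2.97 ± 0.27, and missed the threshold without the session term (adjusted p = 0.0565). Of 12 neutrophil markers tested, which include Ltf, 8 were lower and 1 was higher (2 and 1 without the session term). Their summed level was 5.45 to 13.8 over the 24 h arrays, against 3.96 to 52.5 over the 0 h arrays, and moved in opposite directions by session. In session 1 the sum went from 34.3 at 0 h to 13.8 in KO and from 52.5 to 13.1 in WT macrophages. In session 2 it went from 4.93 to 5.45 in KO and from 3.96 to 5.98 in WT macrophages. Ngp and S100a9, which are neutrophil granule and cytosol proteins, fell by 3.68 ± 0.59 and 3.41 ± 0.40, and both overlapped between the states. Both missed the threshold without the session term (adjusted p = 0.130 and 0.165). The part of neutrophils in these falls was not tested. The 250 bases upstream of the Saa3 start are shown because they hold the C/EBP site counted below (TTGCNNAA, here on the opposite strand), in capitals, 99 bases before the start (RefSeq, GRCm38.p6, chr7:46715677-46715926, minus strand).
Saa3: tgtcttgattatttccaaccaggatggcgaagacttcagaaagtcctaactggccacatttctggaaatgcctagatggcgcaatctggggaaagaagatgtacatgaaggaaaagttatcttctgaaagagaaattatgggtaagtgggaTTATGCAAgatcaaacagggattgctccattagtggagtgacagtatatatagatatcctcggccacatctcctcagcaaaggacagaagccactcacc

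**Figure D2:**
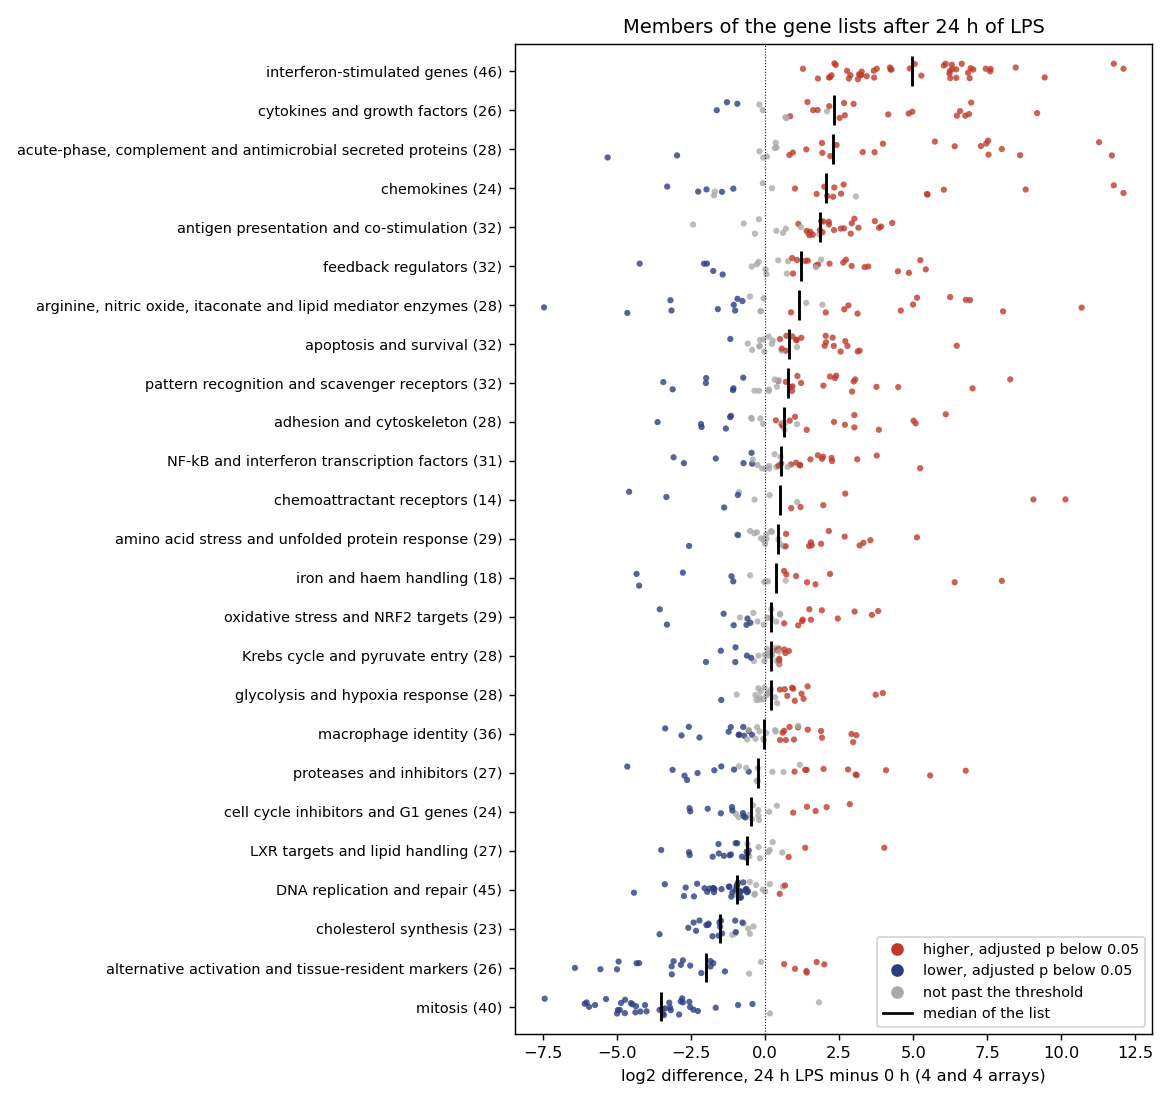
Log2 difference, 24 h of LPS minus 0 h, of each tested member of 25 gene lists, with red for higher, blue for lower and grey for members that did not pass; black lines are list medians and the number tested is beside each name. Medians run from −3.52 for mitosis to 4.97 for interferon-stimulated genes, and only the interferon-stimulated list has all its members on 1 side of 0 and past the threshold.

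Sensors of microbes were raised more often than genes at large, and their share of falls was near that of all genes. Of 32 tested pattern recognition and scavenger receptors, 18 rose and 7 fell (12 and 6 without the session term). The shares of all genes were 20.1% and 22.1%, and the median of the list was 0.78. Marco, a scavenger receptor for bacteria, had levels of 7.68 and 7.28 in KO and 8.14 and 5.55 in WT macrophages after 24 h, against −1.42 and −0.92 in KO and −0.70 and −1.40 in WT macrophages at 0 h, and rose by 8.27 ± 0.49 (adjusted p = 1.34e-04). The WT array of session 2 was the lowest of the 24 h arrays and still far above every 0 h array. Clec4e, which binds mycobacterial glycolipid, rose by 7.0 ± 0.16, Trem3 by 4.49 ± 0.41 and the cytosolic peptidoglycan sensor Nod1 by 3.76 ± 0.15. Clec7a, the receptor for fungal beta-glucan, had levels of 2.43 and 1.61 in KO and 2.58 and 2.09 in WT macrophages after 24 h, against 5.83 and 4.91 in KO and 5.88 and 4.57 in WT macrophages at 0 h, and fell by 3.12 ± 0.18 with no overlap. Tlr5, the flagellin receptor, fell by 3.43 ± 0.40 and Trem2, a lipid receptor of resident macrophages, by 2.0 ± 0.12.

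Feedback inhibitors were raised more often than genes at large, while their falls did not exceed the share of all genes. Of 32 tested feedback regulators, 17 rose and 5 fell, against 20.1% and 22.1% of all genes (13 and 5 without the session term). Their median was 1.22 against 2.47 at 6 h. Socs1, which blocks interferon receptor signalling, had levels of 3.01 and 3.69 in KO and 3.66 and 3.81 in WT macrophages after 24 h, against −1.73 and −1.86 in KO and −1.93 and −2.01 in WT macrophages at 0 h, and rose by 5.42 ± 0.20 (adjusted p = 6.28e-05). The checkpoint ligands Cd274 (PD-L1) and Pdcd1lg2 (PD-L2) rose by 5.24 ± 0.28 and 4.48 ± 0.25. Socs3, the inhibitor of interleukin 6 signalling, rose by 4.85 ± 0.91, with 7.09 in session 1 and 2.62 in session 2, and missed the threshold without the session term (adjusted p = 0.0789). Nr4a1, an early-response nuclear receptor, had levels of −1.42 and −0.55 in KO and −1.42 and −0.81 in WT macrophages after 24 h, against 1.94 and 4.67 in KO and 2.20 and 3.92 in WT macrophages at 0 h, and fell by 4.23 ± 0.35. Dusp4, a phosphatase of MAP kinases, fell by 2.06 ± 0.36, Socs2 by 1.75 ± 0.35 and the interleukin 1 receptor relative Sigirr by 1.96 ± 0.29.

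Among transcription factors of the NF-kB, AP-1, IRF and STAT families, 15 of 31 rose and 6 fell (12 and 2 without the session term), with a median of 0.52, or 0.28 after quantile normalization. Batf, an AP-1 family partner of IRF proteins, had levels of 4.6 and 5.48 in KO and 4.6 and 5.52 in WT macrophages after 24 h, against −0.66 and 0.34 in KO and −0.62 and 0.20 in WT macrophages at 0 h, and rose by 5.23 ± 0.11 (adjusted p = 1.33e-05), close to its 5.42 at 6 h and 5.73 at 12 h. Stat2, a subunit of the interferon-activated factor ISGF3, rose by 3.77 ± 0.26, Batf2 by 3.11 ± 0.50 and Nfkb2, the NF-kB subunit p52, by 2.26 ± 0.13. Irf4 was not well above background on any 24 h array and was at least 4.11-fold lower. Fos fell by 2.74 ± 0.64, with −1.17 in session 1 and −4.30 in session 2. It missed the threshold when either session 2 KO array or the session 2 WT array of 24 h was left out, with values of −3.22 to −2.29 over the 8 such fits.

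Most genes of antigen presentation were raised. Of 32 tested, 22 rose and 0 fell, with a median of 1.87, and the count without the session term was 22. Cd40, the receptor for T cell help, had levels of 2.22 and 4.14 in KO and 3.06 and 4.48 in WT macrophages after 24 h, against −1.56 and −0.08 in KO and −1.51 and −0.12 in WT macrophages at 0 h, and rose by 4.29 ± 0.18 (adjusted p = 7.03e-05). All 4 arrays after LPS lay above all 4 at rest. The co-stimulatory ligand Cd86 rose by 3.92 ± 0.44, Slamf1 by 3.85 ± 0.45 and the peptide transporter Tap1 by 3.70 ± 0.29. The class II genes H2-Aa, H2-Ab1, H2-Eb1 and Cd74 had differences of 1.21, 1.83, 0.70 and 1.44, none past the threshold (adjusted p = 0.280, 0.0839, 0.371 and 0.139), and these 4 were named after their values were seen. The class I relative H2-Q8 rose by 7.46 ± 0.33; its probe may share sequence with other class I genes. Of 8 dendritic cell markers tested, 6 were higher and 0 lower, with a summed level of 1.41 to 2.42 over the 24 h arrays, against 0.257 to 0.771 over the 0 h arrays. Among the risen were Fscn1 (3.84 ± 0.41), an actin-bundling protein, Ccl17 (2.0 ± 0.21) and Zbtb46 (2.18 ± 0.35, adjusted p = 0.0628 without the session term), a transcription factor of the lineage, whereas Flt3 and Xcr1 differed by −0.58 and −0.05 without passing. The part of dendritic cells in the presentation genes was not tested.

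Enzymes of inflammatory mediators held some of the largest changes, in both directions. Of 28 tested genes of arginine, nitric oxide, itaconate and lipid mediators, 13 rose and 9 fell (12 and 6 without the session term), a median of 1.13. That median was 0.25 in session 1 and 1.71 in session 2, 0.63 with normexp correction and 0.41 over members well above background on all 8 arrays. Acod1 had levels of 8.51 and 8.64 in KO and 8.59 and 8.61 in WT macrophages after 24 h, against −0.90 and −3.51 in KO and −0.56 and −3.41 in WT macrophages at 0 h. Its 4 arrays after LPS lay within a fraction of a log2 unit of each other, and at rest session 1 stood above session 2. Nos2, the inducible nitric oxide synthase, was not well above background on any 0 h array and was at least 83.3-fold higher after 24 h (adjusted p = 3.26e-04). Arg1, which competes with Nos2 for arginine, differed by −0.14 ± 0.36 and Arg2 by 1.93 ± 1.18, neither past the threshold (adjusted p = 0.780 and 0.231). Arg2 differed by −0.97 in session 1 and 4.84 in session 2. Ptges, the inducible prostaglandin E synthase, rose by 6.92 ± 0.37 and Hdc, which makes histamine, by 6.78 ± 0.69. Ptgs1, the constitutive cyclooxygenase, had levels of −2.65 and −3.60 in KO and −3.03 and −3.97 in WT macrophages after 24 h, against 1.12 and 1.95 in KO and 0.69 and 1.58 in WT macrophages at 0 h, and fell by 4.65 ± 0.38 (adjusted p = 3.62e-04). With the fall of Hpgd given above, a synthase of prostaglandin E2 was higher and its breakdown enzyme lower on the same arrays. Alox5, which starts leukotriene synthesis, fell by 3.19 ± 0.38, and missed the threshold with normexp background correction.

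Among glycolysis and hypoxia genes 11 of 28 rose and 1 fell (6 and 1 without the session term), with a median of 0.19 that was −0.07 after quantile normalization. Pfkfb3, the activator of phosphofructokinase, rose by 3.98 ± 0.17 and the hexose transporter gene Slc2a6 by 3.73 ± 0.18. Among Krebs cycle genes 8 of 28 rose and 6 fell (1 and 3 without the session term), near the 20.1% and 22.1% of all genes, with a median of 0.21, or −0.06 after quantile normalization. Idh1, the cytosolic isocitrate dehydrogenase, fell by 1.99 ± 0.13 and was the largest change of that list.

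Redox and iron genes held large changes in both directions. Of 29 oxidative stress genes tested, 11 rose and 7 fell (8 and 2 without the session term), a median of 0.21 with 0.43 in session 1 and 0.06 in session 2. Sod2, the mitochondrial superoxide dismutase, rose by 3.82 ± 0.17 and the mitochondrial peroxiredoxin gene Prdx5 by 3.02 ± 0.17. Mt1, a metallothionein that binds zinc, had levels of 3.19 and 3.09 in KO and 3.15 and 2.66 in WT macrophages after 24 h, against 6.35 and 6.52 in KO and 6.03 and 6.43 in WT macrophages at 0 h, and fell by 3.31 ± 0.17 (adjusted p = 1.01e-04) with no overlap. Mt2 fell by 3.55 ± 0.61 although it had stood at 1.99 relative to 0 h at 6 h. Of 18 iron genes, 8 rose and 5 fell, with a median of 0.37. Slc40a1, the iron exporter ferroportin, had levels of 0.96 and −0.97 in KO and 1.73 and −0.26 in WT macrophages after 24 h, against 4.54 and 4.66 in KO and 4.88 and 4.71 in WT macrophages at 0 h, and fell by 4.34 ± 0.42. It was less lowered than at 6 h (−5.95). Ceruloplasmin (Cp), the ferroxidase that works with that exporter, rose by 6.4 ± 0.20, the haemoglobin scavenger Cd163 fell by 4.25 ± 0.43 and the transferrin receptor gene Tfrc by 2.77 ± 0.32.

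Genes of the amino acid stress response stood higher at 24 h than at 6 h. Of 29 tested genes of the amino acid and unfolded protein responses, 12 rose and 2 fell, with medians of −0.09 at 6 h, −0.18 at 12 h and 0.45 at 24 h (0.16 after quantile normalization, 0.80 in session 1 and 0.21 in session 2). Between 6 h and 24 h, 17 of them were higher at 24 h and 3 lower, against 23.2% and 29.7% of all genes. Chac1, which degrades glutathione and is a target of Atf4, had levels of 1.15 and 1.30 in KO and 0.80 and 1.06 in WT macrophages after 24 h, against −2.36 and −2.38 in KO and −3.01 and −2.15 in WT macrophages at 0 h, and rose by 3.55 ± 0.17 (adjusted p = 8.73e-05). It differed by −0.09 at 6 h and 3.14 at 12 h. Trib3, a pseudokinase that damps the same pathway, rose by 3.19 ± 0.35 after −1.94 at 6 h, and Mthfd2, a mitochondrial folate enzyme, by 3.32 ± 0.27. Nupr1, a stress-induced chromatin protein, was raised alike at all times, by 5.30, 5.25 and 5.13.

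Cholesterol synthesis genes were lowered at 24 h. Of 23 tested genes 17 fell and 0 rose, against 22.1% and 20.1% of all genes, and the median of −1.52 followed −0.33 at 6 h and −0.60 at 12 h. At 24 h 16 were lower than at 6 h and 2 higher, against 29.7% and 23.2% of all genes in that fit. Without the session term 6 of them passed at 24 h against 0 h. The 0 h arrays differed by session, and the median was −0.83 in session 1 and −2.15 in session 2. Idi1, isopentenyl diphosphate isomerase, had levels of 0.02 and 0.57 in KO and −0.61 and 1.04 in WT macrophages after 24 h, against 1.59 and 3.59 in KO and 1.08 and 4.07 in WT macrophages at 0 h. Its session 2 arrays at rest stood far above those of session 1. It fell by 2.33 ± 0.37 (adjusted p = 0.00386), with 1.01 at 6 h, and missed the threshold without the session term (adjusted p = 0.0685). Of 27 LXR and lipid genes, 16 fell and 3 rose (6 and 3 without the session term), a median of −0.62. Nr1h3, the nuclear receptor LXR alpha itself, had levels of 4.91 and 4.52 in KO and 4.78 and 3.80 in WT macrophages after 24 h, against 1.43 and −0.20 in KO and 1.26 and −0.57 in WT macrophages at 0 h, and rose by 4.02 ± 0.25 with no overlap. The desaturase gene Fads2 fell by 2.54 ± 0.27 and the elongase gene Elovl6 by 2.57 ± 0.55. The 250 bases upstream of Idi1 are shown because they hold 2 CCAAT boxes (CCAAT, here on the opposite strand), in capitals, 45 and 14 bases before the start (RefSeq, GRCm38.p6, chr13:8885356-8885605, plus strand).
Idi1: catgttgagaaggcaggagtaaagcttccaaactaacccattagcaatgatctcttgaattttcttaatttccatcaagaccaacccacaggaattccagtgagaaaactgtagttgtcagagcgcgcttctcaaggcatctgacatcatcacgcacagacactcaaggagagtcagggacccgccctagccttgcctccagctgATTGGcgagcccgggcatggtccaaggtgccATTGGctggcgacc

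Genes of cell division were the most deeply lowered list. Of 40 tested mitosis genes, 38 fell and 0 rose, with a median of −3.52 after −3.52 at 6 h and −4.41 at 12 h. With members below background set to their bound the median was −3.46. Bub1 (0.16 ± 0.26) and Tpx2 (1.82 ± 0.64), both spindle genes and named after their values were seen, did not pass, and 1 of the 2 probes of Bub1 had the opposite sign. Cyclin B2 (Ccnb2), which drives entry into mitosis, had levels of −3.17 and −2.36 in KO and −2.61 and −1.91 in WT macrophages after 24 h, against 3.40 and 3.51 in KO and 3.36 and 3.76 in WT macrophages at 0 h. All 4 arrays after LPS lay far below all 4 at rest, a fall of 6.02 ± 0.17 (adjusted p = 3.56e-05). The kinetochore gene Cenpf had levels of −7.41 and −4.88 in KO and −7.84 and −4.66 in WT macrophages after 24 h, against 1.07 and 1.30 in KO and 1.08 and 1.5 in WT macrophages at 0 h, and fell by 7.44 ± 0.53. Of its 24 h arrays, 2 were well above background, and the session 2 arrays were the higher ones. Ccna2, cyclin A2, fell by 5.94 ± 0.33, the mitotic kinase gene Pbk by 6.09 ± 0.60, and the spindle genes Aspm and Ska1 by 6.31 ± 0.17 and 6.09 ± 0.56. The kinesin gene Kif14 was at least 26.8-fold lower. The 250 bases upstream of Ccnb2 are shown because they hold 3 CCAAT boxes, in capitals, 87 to 21 bases before the start (RefSeq, GRCm38.p6, chr9:70421555-70421804, minus strand).
Ccnb2: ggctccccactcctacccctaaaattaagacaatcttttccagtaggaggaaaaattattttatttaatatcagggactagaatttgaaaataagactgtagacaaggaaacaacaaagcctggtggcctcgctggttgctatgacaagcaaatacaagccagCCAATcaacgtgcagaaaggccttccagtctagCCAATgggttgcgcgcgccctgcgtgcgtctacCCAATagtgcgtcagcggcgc

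Most DNA replication genes were lowered, and many of them stood above their 6 h level. Of 45 tested, 33 fell and 2 rose (17 and 0 without the session term), with medians of −1.94 at 6 h, −1.37 at 12 h and −0.95 at 24 h. In the fit of 24 h against 6 h, 26 were higher at 24 h and 9 lower, against 23.2% and 29.7% of all genes. Rrm2, a subunit of the enzyme that makes deoxynucleotides, had levels of −4.99 and −3.57 in KO and −5.06 and −4.38 in WT macrophages after 24 h, against −0.42 and 0.16 in KO and −0.73 and 0.68 in WT macrophages at 0 h, and fell by 4.42 ± 0.22 (adjusted p = 9.46e-05). The transcription factor gene E2f2 had levels of −0.63 and −1.39 in KO and −0.10 and −1.21 in WT macrophages after 24 h, against 2.47 and 1.30 in KO and 2.23 and 1.62 in WT macrophages at 0 h. It fell by 2.74 ± 0.16 but had stood at −6.57 at 6 h and −4.64 at 12 h. Thymidine kinase 1 (Tk1) fell by 2.68 ± 0.21. The 250 bases upstream of Cdc6, a licensing factor of replication origins that fell by 1.22 ± 0.15, are shown because they hold the E2F site counted below (TTTNNCGC, here on the opposite strand), in capitals, 138 bases before the start (RefSeq, GRCm38.p6, chr11:98907901-98908150, plus strand). Cdc6, whose states overlapped, was chosen after its value was seen.
Cdc6: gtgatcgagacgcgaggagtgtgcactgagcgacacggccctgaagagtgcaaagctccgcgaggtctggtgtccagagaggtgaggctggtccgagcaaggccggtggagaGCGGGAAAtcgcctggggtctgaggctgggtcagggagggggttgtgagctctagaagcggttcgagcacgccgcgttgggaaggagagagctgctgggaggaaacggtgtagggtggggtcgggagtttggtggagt

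Of 24 tested regulators of the G1 phase, 9 fell and 5 rose (4 and 2 without the session term), against 22.1% lower and 20.1% higher of all genes, a median of −0.49. The cell cycle inhibitor Cdkn2c fell by 2.55 ± 0.20 and Cdkn1c by 1.94 ± 0.20. Cdkn1a, the inhibitor p21, differed by 0.40 ± 0.25 (adjusted p = 0.243) after 2.99 at 6 h. Cyclin D3 (Ccnd3) had levels of 3.72 and 4.18 in KO and 3.61 and 3.86 in WT macrophages after 24 h, against 2.03 and 2.23 in KO and 1.99 and 2.29 in WT macrophages at 0 h, and rose by 1.71 ± 0.12 with no overlap. It had differed by 0.03 at 6 h. Gadd45b, a stress sensor, rose by 2.08 ± 0.25.

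General macrophage genes moved in both directions. Of the 36 tested genes of macrophage identity, 13 rose and 12 fell (10 and 6 without the session term), a median of −0.05 that was 0.28 when arrays were scaled to their median. All 10 defining macrophage markers were measured, 4 higher and 2 lower. Their summed level was 1808 to 2873 over the 24 h arrays, against 1331 to 2594 over the 0 h arrays, which overlapped. Within each genotype and session the sum was higher at 24 h. It was 2873 against 2594 in KO and 2725 against 2173 in WT macrophages of session 1. In session 2 it was 2051 against 1500 in KO and 1808 against 1331 in WT macrophages. Adgre1, a surface antigen of macrophages, had levels of 9.18 and 8.28 in KO and 9.00 and 8.10 in WT macrophages after 24 h, against 7.82 and 7.47 in KO and 7.49 and 7.33 in WT macrophages at 0 h, and rose by 1.11 ± 0.17 (adjusted p = 0.00340). Csf1r, the M-CSF receptor, had levels of 7.19 and 5.77 in KO and 6.59 and 5.32 in WT macrophages after 24 h, against 7.35 and 6.64 in KO and 7.26 and 6.44 in WT macrophages at 0 h. The states overlapped, and the difference of −0.71 ± 0.18 (adjusted p = 0.0204) was lost without the session term (adjusted p = 0.303) and in 6 of the 8 fits that left out 1 array. The transcription factor genes Spi1 (PU.1) and Cebpb rose by 1.44 ± 0.23 and 1.92 ± 0.14. Cebpa had levels of 0.78 and −0.57 in KO and 0.94 and −0.65 in WT macrophages after 24 h, against 3.81 and 2.28 in KO and 3.61 and 2.08 in WT macrophages at 0 h, and fell by 2.82 ± 0.12 (adjusted p = 7.57e-05), less than at 6 h (−5.95). Siglec1, the sialic acid receptor CD169, rose by 3.08 ± 0.14, and Fcgr1, an activating receptor for IgG, by 2.92 ± 0.19. Gas6, the ligand of the Mer and Axl receptors, fell by 3.37 ± 0.37.

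Markers of alternatively activated and resident macrophages were mostly lowered. Of 26 markers of alternative activation and tissue residence, 17 fell and 7 rose, with medians of −0.91 at 6 h, −1.17 at 12 h and −2.0 at 24 h. Mrc1 and F13a1 fell as given above. Egr2, a transcription factor of that state, fell by 5.0 ± 0.54 and the galactose lectin gene Clec10a by 4.94 ± 0.52. The members that rose included Pdcd1lg2 and the chemokines Ccl17 (2.0 ± 0.21) and Ccl22 (1.74 ± 0.36), which LPS also induces. Of 9 tested genes of osteoclasts, which M-CSF-grown cells can become, 3 were higher and 2 lower, near the 20.1% and 22.1% of all genes, with a summed level of 11.4 to 15.3 over the 24 h arrays, against 5.01 to 10.1 over the 0 h arrays. Acp5, the acid phosphatase, rose by 3.24 ± 0.35, and Dcstamp, which is needed for cell fusion, fell by 4.04 ± 0.24.

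Genes of apoptosis and survival, taken as 1 list, were mostly raised or did not pass. Of 32 apoptosis and survival genes, 19 rose and 1 fell, a median of 0.82. The 1 that fell was Bcl2, with a difference of −1.17, and it missed the threshold without the session term (adjusted p = 0.113). Traf1, an adaptor of TNF receptors, had levels of 5.23 and 6.06 in KO and 5.30 and 6.34 in WT macrophages after 24 h, against −0.23 and −0.82 in KO and −0.85 and −1.04 in WT macrophages at 0 h, and rose by 6.47 ± 0.32 with no overlap. The necroptosis effector gene Mlkl rose by 3.19 ± 0.26, the caspase 8 inhibitor gene Cflar by 2.78 ± 0.21 (1 of its 6 detected probes had the opposite sign) and Tnfrsf1b, the second TNF receptor, by 3.13 ± 0.26. Of 28 adhesion genes, 14 rose and 6 fell (9 and 5 without the session term), a median of 0.63, or 0.27 in session 1. The tetraspanin gene Cd9 had levels of 2.38 and 1.31 in KO and 2.38 and 1.82 in WT macrophages after 24 h, against 5.67 and 5.49 in KO and 5.79 and 5.45 in WT macrophages at 0 h, a fall of 3.63 ± 0.18. Of 27 proteases and inhibitors, 10 rose and 9 fell (7 and 5 without the session term), and their median of −0.24 was 0.08 with scaling to the array median, 0.17 with normexp correction and 0.11 in session 2. The membrane-type metalloproteinase gene Mmp14 had levels of 5.15 and 5.85 in KO and 4.44 and 5.74 in WT macrophages after 24 h, against 0.63 and −3.07 in KO and −0.22 and −3.25 in WT macrophages at 0 h. It rose by 6.77 ± 0.89, more in session 2 (8.95) than in session 1 (4.59), where the 0 h arrays were higher. Cst7, an inhibitor of cathepsins, rose by 5.57 ± 0.24, and Plau, the urokinase that activates plasminogen, fell by 4.65 ± 0.26.

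Markers of other cell types were also summed. Of 6 T and NK markers tested, 1 was higher and 1 lower, with a summed level of 0.214 to 0.394 over the 24 h arrays, against 0.144 to 0.494 over the 0 h arrays, and Cd3g was not well above background on any of the 8 arrays. Erythroid markers had 1 lower and 0 higher of 5 (sums 0.303 to 1.01 over the 24 h arrays, against 1.27 to 2.46 over the 0 h arrays) and mast cell markers 0 and 0 of 2. Stromal markers had 4 higher of 9 and none lower (sums 96.5 to 152 over the 24 h arrays, against 57.2 to 84.8 over the 0 h arrays), with the largest rise in the proteoglycan gene Dcn (2.63 ± 0.20). Of 6 endothelial markers 2 were higher, the adhesion gene Pecam1 (3.79 ± 0.60) and Kdr (3.06 ± 0.35), with sums of 3.88 to 9.82 over the 24 h arrays, against 2.21 to 3.51 over the 0 h arrays. The part of such cells in the results was not tested.

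**Figure D3:**
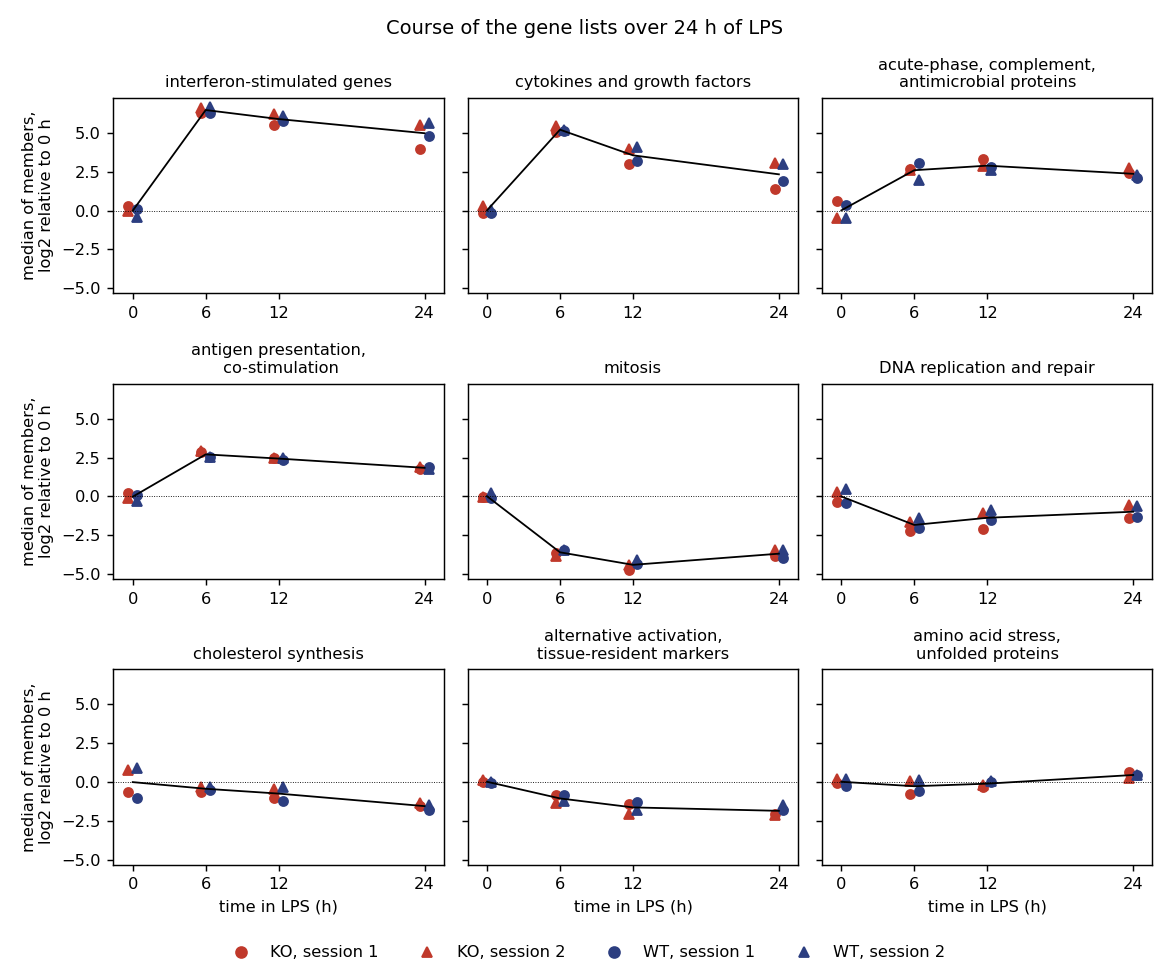
Median level of the members of 9 gene lists relative to their mean at 0 h, in log2 units, on each array against the time in LPS; red is KO, blue is WT, circles are session 1, triangles session 2, and the line joins the means of 4 arrays. Interferon-stimulated and cytokine genes peak at 6 h and stay raised, mitosis genes remain low, cholesterol synthesis and alternative activation genes fall to 24 h, and the cholesterol genes differ between sessions at 0 h.

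The 24 h state also differed from the state at 6 h. In the pooled fit of 24 h against 6 h, 9331 genes passed (52.8%), 4090 higher (23.2%) and 5241 lower (29.7%), and quantile normalization turned the split to 4973 higher and 3794 lower. Both fits use the same 24 h arrays, and the 6 h and 12 h differences quoted here share the 0 h arrays. Some of the largest rises over rest were also above their 6 h level. Cfb exceeded it by 0.85 ± 0.21 (adjusted p = 0.0143), Fpr1 by 1.51 ± 0.20 (adjusted p = 0.00123), Lcn2 by 1.79 ± 0.27, H2-Q8 by 1.99 ± 0.48, Gstt4 by 1.46 ± 0.24 and Saa2 by 0.99 ± 0.24. Hpgd, Slco2b1 and Gpr34 had fallen by 6 h, by amounts of −2.48, −4.70 and −4.37 relative to 0 h, and were well above background on all 4 arrays at that time. At 24 h 1 array of Hpgd and no array of Slco2b1 or Gpr34 was, so that how much further they fell is not measured. Smpd3, Ighm and H1f5, well above background on all arrays of both times, were lower at 24 h than at 6 h, with differences of −2.47, −2.57 and −1.13.

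Other genes moved strongly at 6 h and did not differ from rest at 24 h by the test. Cnr2, the cannabinoid receptor of immune cells, had levels of −0.78 and −0.89 in KO and −0.27 and −0.06 in WT macrophages after 24 h, against 1.05 and 0.41 in KO and 0.91 and −0.39 in WT macrophages at 0 h, where the states overlapped. It stood at −6.61 at 6 h, when 2 of 4 arrays were well above background, and −2.93 at 12 h, and differed by −0.99 ± 0.34 at 24 h (adjusted p = 0.0575). Tmem86a, which breaks down lysoplasmalogen, stood at −4.76 at 6 h and differed by 0.02 ± 0.21 at 24 h. In the other direction, Fst, the activin antagonist follistatin, was well above background on all 4 arrays at 6 h and on none at 24 h or 0 h, so that its size has no measured value. Lck, a kinase of T cell receptor signalling, stood at 7.09 at 6 h and 4.83 at 12 h and differed by 0.60 ± 0.27 at 24 h. Cav1, the coat protein of caveolae, had levels of −0.02 and −2.44 in KO and −2.01 and −2.90 in WT macrophages after 24 h, against 0.51 and −4.38 in KO and −0.41 and −4.17 in WT macrophages at 0 h. Its 0 h arrays of session 1 stood well above those of session 2, and the difference of 0.27 ± 0.63 was −1.06 in session 1 and 1.6 in session 2. A p that misses the threshold does not show that these genes were back at rest.

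The 24 h response was compared between KO and WT macrophages by a test of the difference of the responses. With limma 0 of 17659 genes (0%) passed after adjustment, and 385 had an unadjusted p below 0.05. The 3 smallest p values in each direction among genes with an ordinary symbol follow, and none of these genes passed. Btbd11, an ankyrin repeat gene, had levels of −3.30 and −4.37 in KO and −6.20 and −6.94 in WT macrophages after 24 h, against −2.24 and −2.81 in KO and −2.69 and −3.08 in WT macrophages at 0 h, and the KO response exceeded the WT response by 2.38 ± 0.32 (adjusted p = 1.0 by limma). Mrpl39, a mitochondrial ribosomal protein on the chromosome of the miR-155 gene, had levels of 1.16 and 0.88 in KO and 3.02 and 3.19 in WT macrophages after 24 h, against 2.27 and 2.20 in KO and 2.24 and 2.33 in WT macrophages at 0 h. The KO arrays were lower and the WT arrays higher after LPS, a difference of −2.04 ± 0.27 (adjusted p = 1.0). For the other 4 genes the difference was 1.96 ± 0.32 for Mboat2, 1.46 ± 0.24 for Ccdc153, −1.43 ± 0.23 for Sidt1 and −2.39 ± 0.40 for Tnfsf8. A p that misses the threshold does not show that the genotypes responded alike. Cfb had responses of 11.71 in KO and 11.70 in WT cells, Fpr1 of 10.43 and 9.85, and Mrc1 of −5.50 and −5.61.

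**Figure D4:**
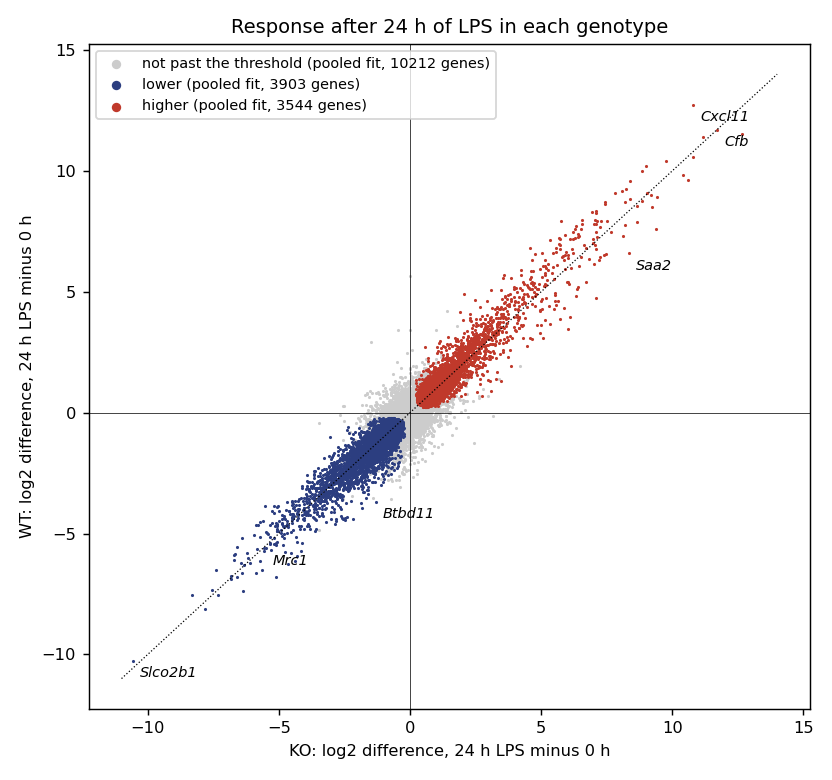
Log2 difference, 24 h of LPS minus 0 h, of 17659 genes in KO (horizontal axis) and WT macrophages (vertical axis), coloured by the call of the pooled fit; the dotted line marks equal responses. Cfb, Cxcl11 and Saa2 lie at the upper right and Mrc1 and Slco2b1 at the lower left, Cfb lies close to that line, and Btbd11 lies below it.

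Promoter letters were counted in windows of 250 bases before to 50 after each start in the RefSeq table (GRCm38.p6), on both strands, for the 11317 tested genes that the table holds. The interferon-stimulated response element stood in 18 of 33 interferon-stimulated genes (54.5%), against 3.83% of all tested genes. It stood in 6.74% of the genes higher at 24 h and 3.12% of the lower ones. The kappa B consensus stood in 6 of 17 chemokine promoters (35.3%) and 5 of 18 cytokine promoters (27.8%), against 6.21% of all. The C/EBP site (TTGCNNAA) stood in 14 of 20 acute-phase promoters (70.0%), against 10.4%. Among mitosis genes, the cell cycle homology region (TTTGAA) stood in 69.7% and the CCAAT box in 72.7% of 33, against 15% and 42.8%. The E2F site (TTTNNCGC) stood in 42.9% of 35 replication promoters, against 9.07%. All 16 cholesterol synthesis promoters in the table held a CCAAT box, and 1 of them (6.25%, against 1.35%) held the letters TCACNCCAC of the sterol regulatory element. Among all genes higher and all genes lower at 24 h, these other motifs lay nearer to the share of all tested genes. The shares were 7.13% and 6.17% for kappa B, 11.6% and 10.3% for C/EBP and 14.1% and 17.1% for the cell cycle homology region. They were 41.2% and 46.8% for the CCAAT box, 8.73% and 9.5% for E2F and 0.974% and 1.44% for the sterol element. The median GC content of the windows was 52.3% for interferon-stimulated genes, 63.5% for cholesterol genes and 59.8% for all tested genes. A match describes letters and not binding.

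**Figure D5:**
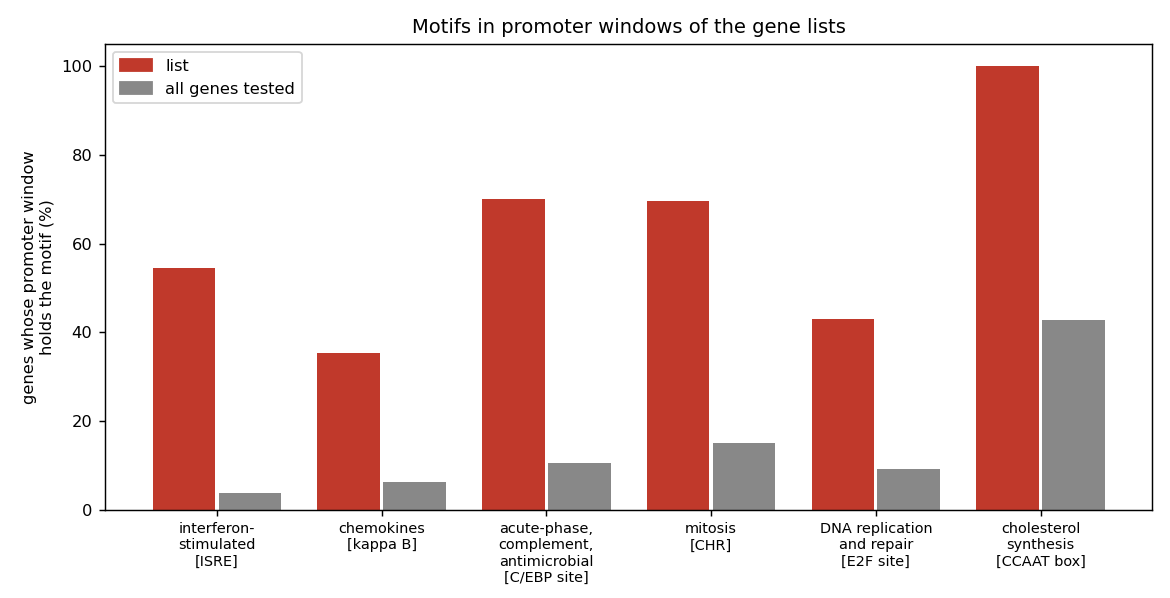
Share of genes, in percent, whose promoter window holds the motif named in brackets, for the members of 6 gene lists (red) and for all tested genes with a window (grey); ISRE is the interferon-stimulated response element and CHR the cell cycle homology region. The 6 pairs were chosen for display, and in each the list has the taller bar, the highest being cholesterol synthesis at 100% for the CCAAT box against 42.8% of all tested genes. The motifs are not particular to these lists. The CCAAT box stood in 77.8% of amino acid stress promoters but 17.6% of chemokine promoters. Kappa B stood in 33.3% of feedback regulators but 0% of proteases and inhibitors, and C/EBP in 50% of iron genes but 0% of mitosis genes.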

How the data were processed

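RNA of each sample was hybridised to 1 single-colour array. The deposited scanner files hold the signal intensity of each spot, background-subtracted by Agilent Feature Extraction 10.5.1.1, per the file headers; the deposited series table holds log2 values of the same arrays, per its values, and was used as an alternative. From the intensity, log2 minus the 75th percentile of each array was computed here. Control spots and outlier spots were left out, spots of 1 probe were averaged, and genes well above background on all arrays of at least 1 group of the study were kept, each by its brightest such probe. This filter kept 26855 of the 41077 probes measured on every array, for 17659 genes. Symbols came from the RefSeq table by accession, then symbol or synonym, and otherwise stayed as the files give them; probe positions are those of the array design (mm9).

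The fit was limma 3.58.1 in R 4.3.3 with state, genotype and replicate number, at an adjusted p of 0.05. The fitting script was tested on simulated data, where it recovered 112 of 200 planted changes (56%) with 4 false calls among 17659 genes. Far fewer genes changed there than were called in the real data. Samples of the same replicate number deviated together in all 6 group pairs (r of 0.40 to 0.84), and the number coincides with the scan session in the file headers. Arrays limit the precision by their number. The genes named were the largest changes among all genes, by bound, by list, against 6 h and by genotype, plus fixed markers and those said to be chosen after their values were seen. The arrays, lists and motifs were chosen with earlier results of these data known. Alternatives were the fit without the replicate term, other scalings and background correction, other probe filters, slide as a block, all 16 arrays, each session alone and each array left out. Some genes are not reported here.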

Additional observations from a re-analysis of the deposited data

Results flagged for a closer look

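In 494 sets of 4 arrays (247 named genes in each state), 6 had 1 array far from the others by Dixon's criterion, which chance meets in about 1 in 20 sets. After 24 h, Clec4e had an array at 6.43, Fos at 1.80, Mmp10 at −6.14 and Pdcd1lg2 at −1.99 that stood apart from the other 3. At 0 h, Cxcl10 had such an array at 2.17 and Kif14 at −1.91. Among named genes, 4 had KO and WT responses in opposite directions on every array pair. All 4 had been named for a small p in the test between genotypes on these arrays, so the flag is not independent of that choice. The KO response minus the WT response was 1.96 for Mboat2, −2.04 for Mrpl39, −1.43 for Sidt1 and −2.39 for Tnfsf8, and none passed limma's test of the difference after adjustment.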

How the results depend on the processing

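Against 3544 genes higher and 3903 lower, the fit without the replicate block gave 1929 and 2092, scaling to the array median 5941 and 2477, normexp background correction 2108 and 1885, and session 1 alone 1523 and 2090. Leaving out each array in turn gave 2519 to 3319 higher and 2919 to 4031 lower. For 24 h against 6 h, with 4090 higher and 5241 lower, the fit without the block gave 2470 and 2511, and leaving out each array gave 3258 to 3700 and 3998 to 4769. Quantile normalization, the deposited series table, the other probe filters, all 16 arrays, slide as a block and session 2 alone kept the 24 h against 0 h counts within 1.5 times. The test between genotypes called 0 genes in every alternative run. Of 227 named genes that passed, 223 kept their direction in every alternative. Most were named for large changes in the main fit, so a kept direction says little. Some kept it but missed the threshold, 44 in the fit without the replicate block and 36 with normexp correction. Among differences that passed in either setting, those that changed sign were Apol7c (−1.21) and Arg2 (−0.97) in session 1 alone, Cr2 (0.31), Klrb1c (0.22) and Ppbp (0.040) with normexp correction, and Itgb3 (−1.46) with the mean of its probes; the cause was not tested. Differences that passed in neither, such as those of Il10, Cav1, Arg1, Asap3 and Mrpl39, also changed sign in some alternatives. Signal near background limits the size of the 165 and 299 passing genes that were below background on every 0 h or every 24 h array.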
